A study of Arabidopsis thaliana with 21 samples.

Results

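NLR genes encode the intracellular immune receptors of plants, which sense the effector proteins that pathogens deliver into plant cells. The 38 Arabidopsis NLR genes described here were taken from a list of TAIR10 loci and make up 38 of the 27444 protein-coding genes of chromosomes 1 to 5. By their RefSeq annotation or textbook knowledge, 23 encode a TIR domain at the N-terminus, 13 encode a coiled-coil (CC) domain, and for the remaining 2 (AT4G19500 and AT1G58602) no class was given. Peaks came from ChIP-seq of Col-0 seedlings, harvested without roots at 6 days of age. The histone variant H2A.Z was precipitated from 3 WT and 3 *mbd9-1* samples, and acetylated histone H4 (H4Ac) from 3 WT samples. The *mbd9-1* plants carry a T-DNA insertion in *MBD9*, a single allele in the Col-0 background, and neither genotype received a treatment. Whole shoots were used, so a peak does not tell which cells carried the mark, and the seedlings were not infected. The *arp6-1*, *mbd9-1* H4Ac and input libraries were not analysed here.

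An NLR has an N-terminal signalling domain, a central nucleotide-binding domain and a C-terminal run of leucine-rich repeats. Some NLRs recognise an effector or guard a host protein that effectors attack, and helper NLRs carry the signal onward. Too much NLR activity stunts plants, and NLR genes often lie in clusters of related copies. H2A.Z is inserted into nucleosomes by the SWR1 complex and in plants sits at gene starts and in the bodies of genes that respond to the environment. Acetylated H4 is a mark of open chromatin near the starts of active genes. MBD9 is a chromatin protein needed for H2A.Z at part of its sites.

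Each peak list gives only the chromosome, start and end of its peaks, so the reads behind a peak cannot be read from it, and the read numbers of the libraries were not used here. A gene was called marked in a library when at least 1 bp of its window, the gene body and the 500 bp upstream of its start, lay under a peak. The lists held 6263 to 9260 peaks for WT H2A.Z, 5215 to 5733 for *mbd9-1* H2A.Z and 10439 to 12030 for WT H4Ac. The third *mbd9-1* list stood apart by its narrow peaks, with a median width of 381 bp against 587 to 668 bp in the other H2A.Z lists. In every list 1 width was the most common, and 29.7% to 41.3% of WT H2A.Z peaks, 35.2% to 64.4% of *mbd9-1* H2A.Z peaks and 9.77% to 13.4% of H4Ac peaks had exactly that width. On the NLR genes this held for 6 of 18 WT H2A.Z peaks, 13 of 27 *mbd9-1* H2A.Z peaks and 15 of 75 H4Ac peaks. That width was also the narrowest in 8 of the 9 lists. The lists cannot check the genotype of *mbd9-1*, because a peak list shows neither the insertion nor the transcript of *MBD9*.

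H4Ac was the common mark of these NLR genes and H2A.Z the rare one. H4Ac peaks lay on 28, 24 and 20 of the 38 genes in the 3 WT libraries (73.7%, 63.2% and 52.6%, mean 63.2% ± 10.5, SD, n = 3), where 49.3%, 43.9% and 43.5% of all protein-coding genes were marked. WT H2A.Z peaks lay on 9, 4 and 4 of them (23.7%, 10.5% and 10.5%, mean 14.9% ± 7.60), where 34.6%, 23.4% and 29.4% of all protein-coding genes were marked. In *mbd9-1*, H2A.Z peaks lay on 9, 11 and 5 (23.7%, 28.9% and 13.2%, mean 21.9% ± 8.04), against 18.5%, 21.4% and 14.1% of all protein-coding genes. The 3 H4Ac values thus lay above all 6 H2A.Z values, while the WT and *mbd9-1* H2A.Z values overlapped.

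**Figure D1:**
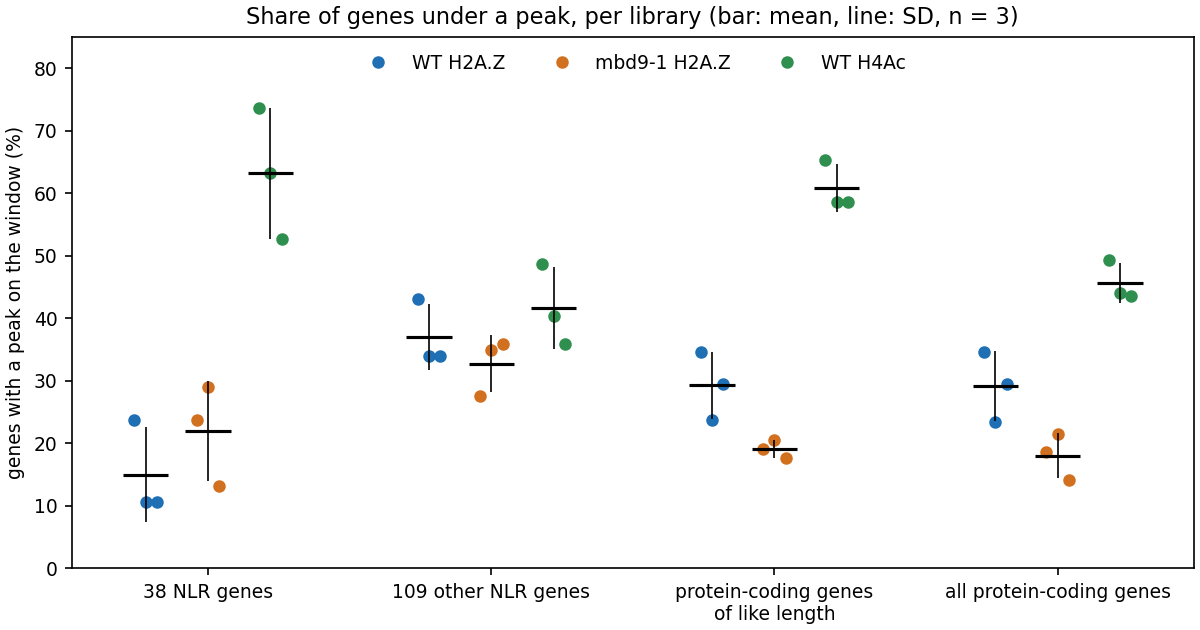
Percent of genes with a peak on the window (y axis) in each library, for the 38 NLR genes, 109 other NLR genes, protein-coding genes of like length and all protein-coding genes (x axis). Points are libraries, horizontal bars are means and vertical lines are SD (n = 3). H4Ac marked 52.6% to 73.7% of the 38 genes, and the WT H2A.Z points of the 38 genes (10.5% to 23.7%) lie low beside those of all genes (23.4% to 34.6%).

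The windows of these genes are long, with a median of 5410 bp against 2578 bp for all protein-coding genes. Among the 3803 protein-coding genes with windows of 4026 to 6570 bp (the middle range of the 38), H4Ac marked 60.8% ± 3.85, WT H2A.Z 29.2% ± 5.41 and *mbd9-1* H2A.Z 19.0% ± 1.47 (mean of 3 libraries). Beside genes of like length the H4Ac share of the NLR genes was higher by 2.34 percentage points only, and their WT H2A.Z share stayed lower. The nearest relatives were different again. In the 109 other genes whose RefSeq product names an NBS-LRR or NB-ARC protein, WT H2A.Z marked 37.0% ± 5.30, *mbd9-1* H2A.Z 32.7% ± 4.53 and H4Ac 41.6% ± 6.51. No test was made over the 38 genes, since their list was drawn up with results of these data known, so these are descriptions.

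From WT to *mbd9-1* the share of all protein-coding genes with H2A.Z was lower by 11.1 percentage points (29.1% ± 5.61 to 18.0% ± 3.67, n = 3 and 3, exact two-sided permutation test, p = 0.1, the smallest that 3 against 3 libraries can give). Over the 38 NLR genes the same difference had the other sign, +7.02 percentage points, and was smaller than the SD of either group. It was 11.4 without the first WT library or the third *mbd9-1* library and 3.51 without the second *mbd9-1* library. With the narrowest peaks of each list left out (up to the lower quartile of width), WT H2A.Z marked 10.5% and *mbd9-1* H2A.Z 11.4% of the NLR genes, a difference of 0.877 percentage points. Counted by length, WT H2A.Z peaks covered 1.12% ± 0.787 and *mbd9-1* peaks 2.09% ± 0.750 of the summed windows, against 7.23% ± 1.78 and 4.18% ± 1.63 for all protein-coding genes. Gene by gene, an exact permutation test of the covered percent over all 27444 genes called none (Benjamini-Hochberg adjusted p = 1.0 throughout, 0 genes at an unadjusted p under 0.05), as 3 against 3 libraries cannot reach 0.05.

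Taken by how many libraries marked them, 5 of the 38 had H2A.Z in at least 2 WT libraries (28.8% of all protein-coding genes did) and 3 of these in all 3 (15.8%). The 5 were AT1G17600, *ADR1*, *RPP1*, AT3G44670 and AT4G16920. In *mbd9-1*, 8 had H2A.Z in at least 2 libraries (16.0%), among them AT1G17600, AT1G17610, *RLM1*, *RPP1*, AT4G16920, AT4G16940 and AT5G66910. H4Ac lay on 25 in at least 2 libraries (46.3%), on 18 in all 3 (36.5%) and on 9 in none (46.1%). These H4Ac counts, 65.79%, 47.37% and 23.68% of the 38, were near the shares of genes of like length, 61.85%, 49.57% and 28.95%. No H2A.Z library of either genotype marked 22 of them (48.4%). H2A.Z in every WT library but in none of *mbd9-1* was found on no NLR gene and on 4.88% of all protein-coding genes. The 0 rests on a single base, since AT3G44670 was marked in every WT library and, by an overlap of 1 bp, in 1 of *mbd9-1*. Single libraries decided several of these counts. The 5 became 3 without the first WT library, the 8 became 4, 2 and 6 without the first, the second and the third *mbd9-1* library, and 1 NLR gene was in WT alone without the first or the second. AT5G66910 alone was marked in no WT and in every *mbd9-1* library (0.557%), and AT4G16920 alone in at least 5 of the 6 H2A.Z libraries (8.78%).

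**Figure D2:**
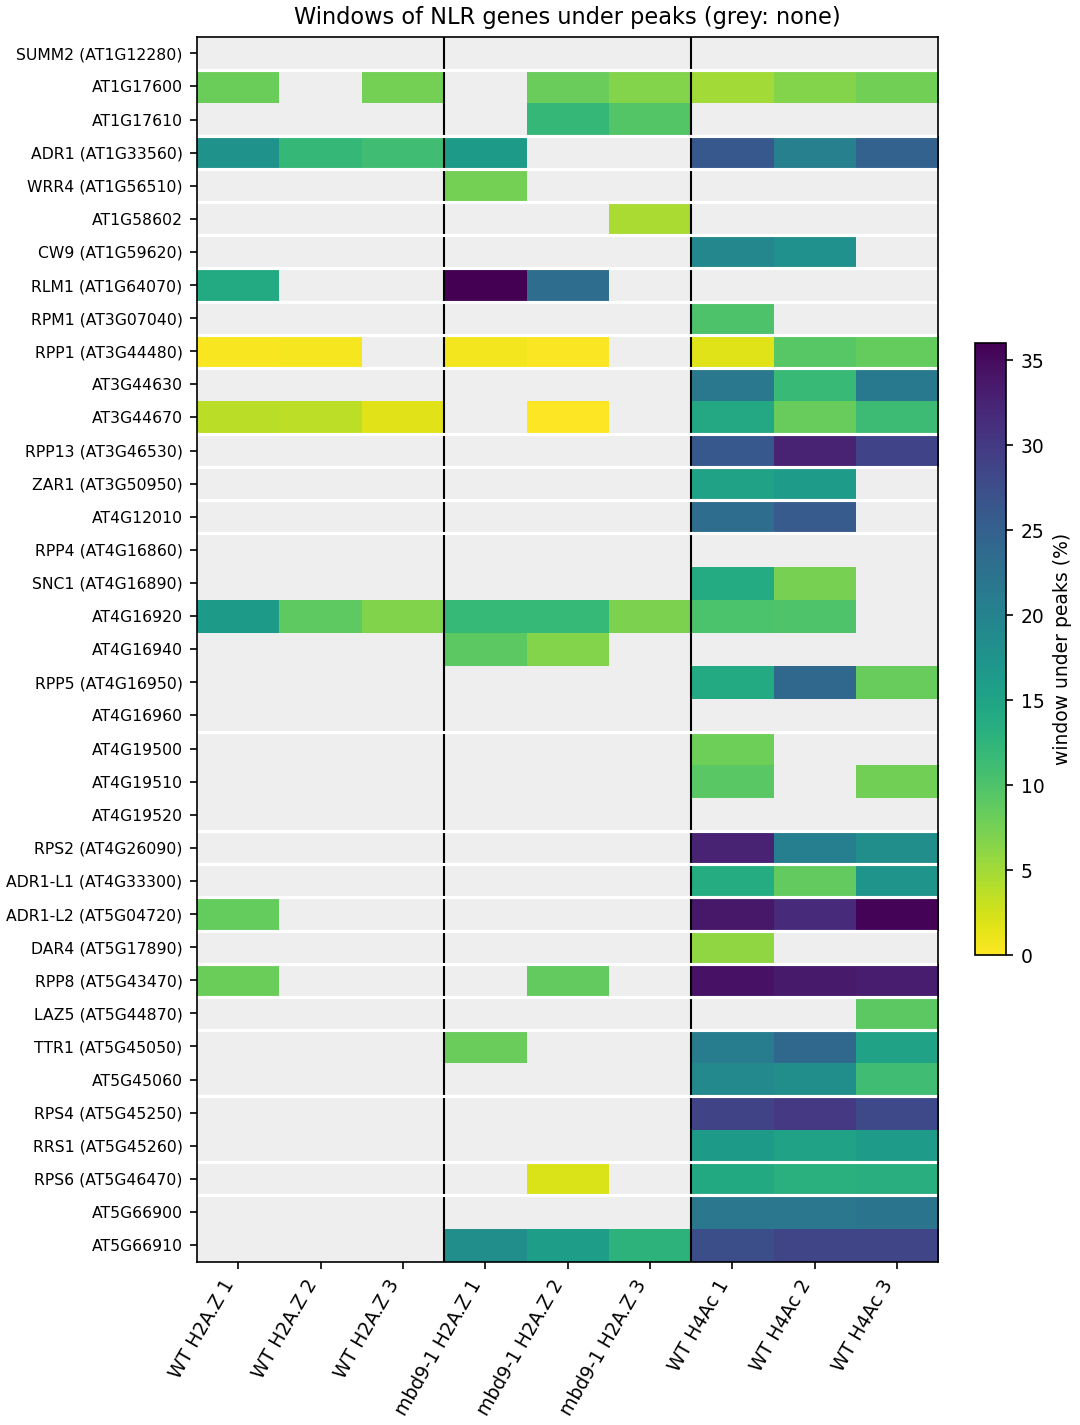
Percent of the window under peaks (colour) for 37 of the NLR genes (rows, in genome order) in each of the 9 libraries (columns). Grey is no peak, and white lines separate genes over 50 kb apart. H4Ac fills most rows, 22 rows have no H2A.Z peak in any of the 6 H2A.Z columns, and AT5G66910 is marked in the *mbd9-1* columns and empty in WT H2A.Z.

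The 16 genes with any H2A.Z peak split into 8 with peaks in both genotypes, 7 with peaks in *mbd9-1* only and 1 (*ADR1-L2*) in WT only. Of all protein-coding genes, 23.2% had peaks in both, 8.78% in *mbd9-1* only and 19.6% in WT only. In 3 of the 8 shared genes, AT1G17600 and *RPP8* among them, the WT and *mbd9-1* peaks had no base in common, so the gene was marked in both genotypes but at different places. This held for 2.83% of all protein-coding genes, or 12.2% of those marked in both genotypes (19.7% among genes of like length).

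The gene with the largest share of its window under WT H2A.Z peaks was *ADR1* (AT1G33560, chr1:12168768-12172119 in TAIR10 coordinates), though AT4G16920 had more bp covered. *ADR1* encodes a helper NLR that acts with EDS1 and PAD4. Its window had 673, 461 and 428 bp under WT H2A.Z peaks and 630, 0 and 0 bp under *mbd9-1* peaks. All WT libraries and a single *mbd9-1* library thus had a peak, and the groups overlapped. Averaged over libraries, 13.5% ± 3.45 of its window was covered in WT, the highest of the 38, and 5.45% ± 9.44 in *mbd9-1*. The WT peaks shared 404 bp, all inside 1 coding exon and centred 642 to 707 bp from the gene start, and this stretch lay wholly under an H4Ac peak in all 3 WT libraries. H4Ac covered 1004, 783 and 949 bp of the window. *ADR1-L1* (AT4G33300), its relative, had no H2A.Z peak and 904, 568 and 1142 bp of H4Ac. *ADR1-L2* (AT5G04720) had 1288, 1204 and 1364 bp of H4Ac or 33.7% ± 2.10 of its window, from 1 broad peak per library that crossed the gene start. Its only H2A.Z peak, in the first WT library, reached 325 bp into the window but was centred in the upstream gene AT5G04710.

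AT5G66900 and AT5G66910 are neighbouring CC-type genes on chromosome 5, on the same strand with 171 bp between them. AT5G66910 (chr5:26718130-26721377) had 0, 0 and 0 bp under WT H2A.Z peaks and 684, 594 and 477 bp under *mbd9-1* peaks. Every *mbd9-1* library lay above every WT library, as for 1.1% of all protein-coding genes, and this was the only NLR gene to do so (exact permutation p = 0.1, adjusted p = 1.0). The peaks were centred 389 to 445 bp from the gene start in a coding exon, and each was wider than the most common width of its list. H4Ac covered 1025, 1068 and 1070 bp of the window in WT, and the 477 bp shared by the 3 *mbd9-1* peaks lay wholly under H4Ac in each WT library. AT5G66900 had the same H4Ac pattern, with 812, 814 and 829 bp, and no H2A.Z in any of the 6 libraries. The reads had 50 nt, and 98.0% of the 50-mers of each of the windows occur once in the genome. The coding sequence inside the shared *mbd9-1* peak and its counterpart in AT5G66900 were 69.8% identical, with no identical run longer than 12 bases. Both are shown because a pair of adjacent copies differed in H2A.Z (TAIR10.1, minus strand, 5′ to 3′, capitals mark bases that differ from the other copy or have no partner there), AT5G66910 from chr5:26720786-26721067 and AT5G66900 from chr5:26717410-26717697.
AT5G66910: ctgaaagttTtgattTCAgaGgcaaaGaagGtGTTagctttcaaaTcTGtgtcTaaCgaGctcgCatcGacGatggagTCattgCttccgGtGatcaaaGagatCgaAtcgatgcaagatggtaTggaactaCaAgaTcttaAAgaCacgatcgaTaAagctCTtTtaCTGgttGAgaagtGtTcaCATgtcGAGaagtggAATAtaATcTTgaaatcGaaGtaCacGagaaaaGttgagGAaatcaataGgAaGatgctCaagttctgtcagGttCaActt
AT5G66900: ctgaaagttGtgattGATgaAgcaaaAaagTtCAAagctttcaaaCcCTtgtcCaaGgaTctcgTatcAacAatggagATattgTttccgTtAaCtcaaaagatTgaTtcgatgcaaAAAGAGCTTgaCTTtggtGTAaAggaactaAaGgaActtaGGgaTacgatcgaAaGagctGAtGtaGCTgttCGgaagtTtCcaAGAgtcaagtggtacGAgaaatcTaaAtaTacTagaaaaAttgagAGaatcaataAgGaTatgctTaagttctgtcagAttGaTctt

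The RPP5 locus on chromosome 4 holds 6 of the 38 genes within 62.6 kb, all TIR-type and all on the minus strand: *RPP4*, *SNC1*, AT4G16920, AT4G16940, *RPP5* and AT4G16960. *RPP4* and *RPP5* give resistance to the downy mildew pathogen, and a gain-of-function allele of *SNC1* causes constant immune activity. H2A.Z peaks lay only on 2 of the 6 genes, AT4G16920 and AT4G16940. *RPP4* (AT4G16860) and AT4G16960 had no peak in any of the 9 libraries. *SNC1* (AT4G16890) had H4Ac on 863, 454 and 0 bp, and *RPP5* (AT4G16950) on 985, 1678 and 588 bp.

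AT4G16920 (chr4:9517950-9525800) was the one NLR gene marked in all 6 H2A.Z libraries, yet the place differed. WT peaks covered 1368, 751 and 574 bp of its window and *mbd9-1* peaks 996, 994 and 591 bp. Each WT library had a peak centred 416 to 489 bp from the gene start, in a coding exon. No *mbd9-1* peak covered that place, and instead each *mbd9-1* library had a peak centred 6015 to 6268 bp from the start, at 76.6% to 79.8% of the gene length. The first WT library also had a peak of 439 bp there, at 80.1%, so the 3′ place was not particular to *mbd9-1*, and the third *mbd9-1* library had a further peak with its centre at -553 bp. In WT, H4Ac peaks lay on 424 bp at the start in the first library only and near the 3′ place in the first and second. Summed over the window, the gene was covered alike in both genotypes, at 10.7% ± 4.99 in WT and 10.3% ± 2.79 in *mbd9-1*.

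Related copies could take reads from each other in this locus. The share of 50-mers that occur once in the genome was 68.3% for AT4G16920, 72.6% for AT4G16940, 54.4% for *RPP5*, 54.9% for AT4G16960, 78.9% for *RPP4* and 80.2% for *SNC1*. Inside the WT peaks at the start of AT4G16920, however, every 50-mer of the gene was unique, and inside the 3′ peaks 89.2% to 91.8% were. A coding stretch of 227 bases shared by the 3′ *mbd9-1* peaks was 93.83% identical to *SNC1* and 92.95% identical to *RPP5*. Its longest identical runs there, 53 and 80 bases, exceeded the read length of 50 nt. Whether reads were exchanged at the 3′ place was not tested. A coding stretch of 300 bases in the shared part of the WT peaks was 77.1% to 89.3% identical to the other 5 genes of the locus, with no identical run longer than 35 bases. It is shown beside the closest counterpart, in *RPP4*, which had no peak (TAIR10.1, minus strand, 5′ to 3′, capitals mark the 32 bases that differ), AT4G16920 from chr4:9525273-9525572 and RPP4 from chr4:9495270-9495569.
AT4G16920: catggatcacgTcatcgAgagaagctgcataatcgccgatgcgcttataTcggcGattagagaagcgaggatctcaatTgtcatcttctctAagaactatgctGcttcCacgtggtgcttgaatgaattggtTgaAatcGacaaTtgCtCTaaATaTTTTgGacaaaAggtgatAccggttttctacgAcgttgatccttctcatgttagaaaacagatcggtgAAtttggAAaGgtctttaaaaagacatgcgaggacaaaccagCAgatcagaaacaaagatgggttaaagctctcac
RPP4: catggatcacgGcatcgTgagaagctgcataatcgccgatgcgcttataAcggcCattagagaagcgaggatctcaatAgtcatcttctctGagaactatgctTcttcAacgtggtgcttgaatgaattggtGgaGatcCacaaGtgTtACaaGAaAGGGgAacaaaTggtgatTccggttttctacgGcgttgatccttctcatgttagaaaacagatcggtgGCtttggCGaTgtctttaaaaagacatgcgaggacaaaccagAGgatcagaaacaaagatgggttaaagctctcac

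AT4G16940 had no WT H2A.Z peak and 635, 471 and 0 bp under *mbd9-1* peaks. The peaks of the first and second *mbd9-1* library were centred 2370 and 3862 bp from the start and did not overlap each other. The gene had no H4Ac peak.

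**Figure D3:**
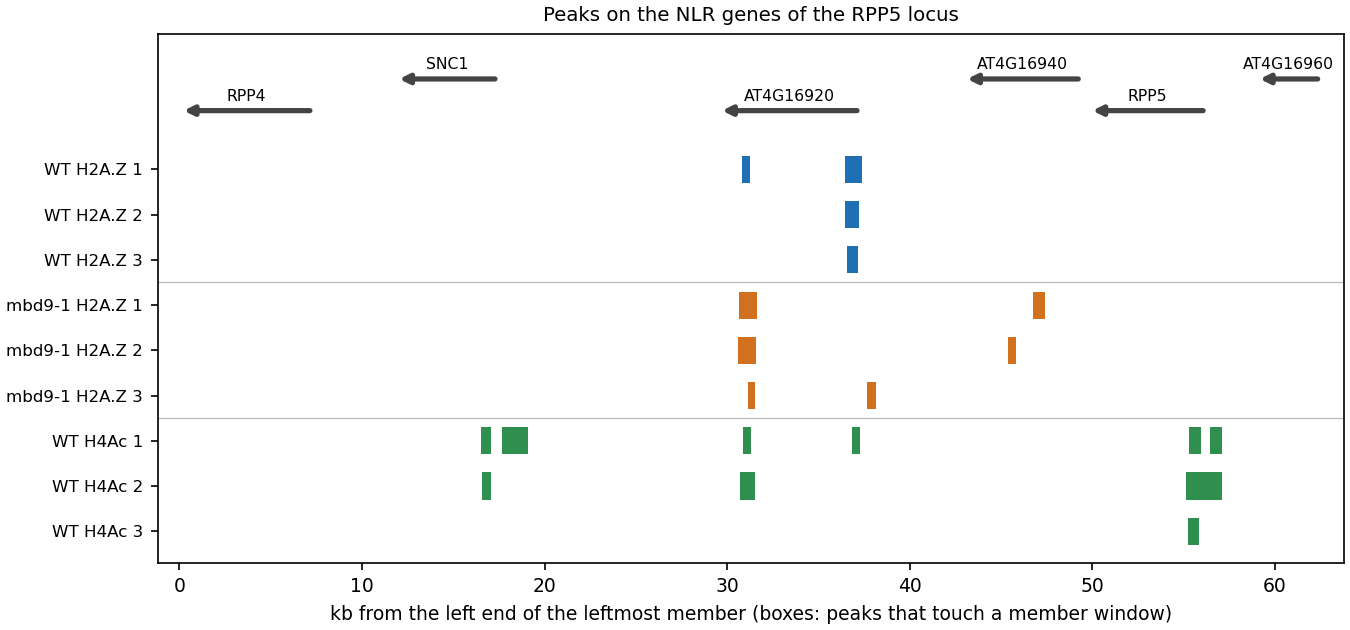
Peaks that touch the windows of the 6 NLR genes of the RPP5 locus (x axis, kb from the left end of RPP4) in the 9 libraries (rows). Arrows show the genes and their direction of transcription, boxes show peaks. The WT H2A.Z boxes at the start of AT4G16920 and the *mbd9-1* boxes near its 3′ end, 416 to 489 bp and 6015 to 6268 bp from the start, lie at opposite ends of the gene.

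On chromosome 5, 2 pairs of NLR genes lie head to head, and in both pairs H4Ac spanned the shared start region. *RPS4* (AT5G45250) and *RRS1* (AT5G45260) encode receptors that work as a pair, and RRS1 carries a WRKY domain that effectors target. Only 27 bp separate their starts, and 1 H4Ac peak of 1622, 1602 and 1580 bp covered both starts in the 3 libraries. It put 1408, 1475 and 1381 bp of the *RPS4* window and 1187, 1100 and 1172 bp of the *RRS1* window under H4Ac. Neither gene had an H2A.Z peak in any of the 6 libraries. *TTR1* (AT5G45050), which also encodes a WRKY domain, and AT5G45060 lie 64 bp apart. Single H4Ac peaks of 1277, 1409 and 848 bp covered that gap, with 1157, 1332 and 848 bp on *TTR1* and 1056, 1013 and 616 bp on AT5G45060. Here 1 *mbd9-1* library had an H2A.Z peak, 459 bp at the 3′ end of *TTR1*, and AT5G45060 had none. Each pair counts as 2 marked genes although a single peak marks both.

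The bases between the starts are given because the whole of each stretch lay under H4Ac in all 3 WT libraries and under no H2A.Z peak. They are written from the plus strand of TAIR10.1, 5′ to 3′, from chr5:18326176-18326202 and chr5:18181974-18182037. Capitals mark the core of the W-box, TTGAC, searched on both strands (GTCAA on the reverse), which WRKY factors bind.
RPS4 to RRS1: tgagatttgagtggttgaatgtccaat
TTR1 to AT5G45060: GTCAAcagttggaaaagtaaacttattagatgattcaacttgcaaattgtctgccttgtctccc
The core occurs once in the stretch between *TTR1* and AT5G45060 and not in the shorter one. Of all protein-coding genes, 13.2% hold it in the 64 bases upstream of the start and 5.21% in the 27 bases upstream, against 7 (18.4%) and 5 (13.2%) of the 38 NLR genes. In the 250 bases upstream it was found in 16 of the 38 NLR genes (42.1%) and in 44.9% of all protein-coding genes.

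**Figure D4:**
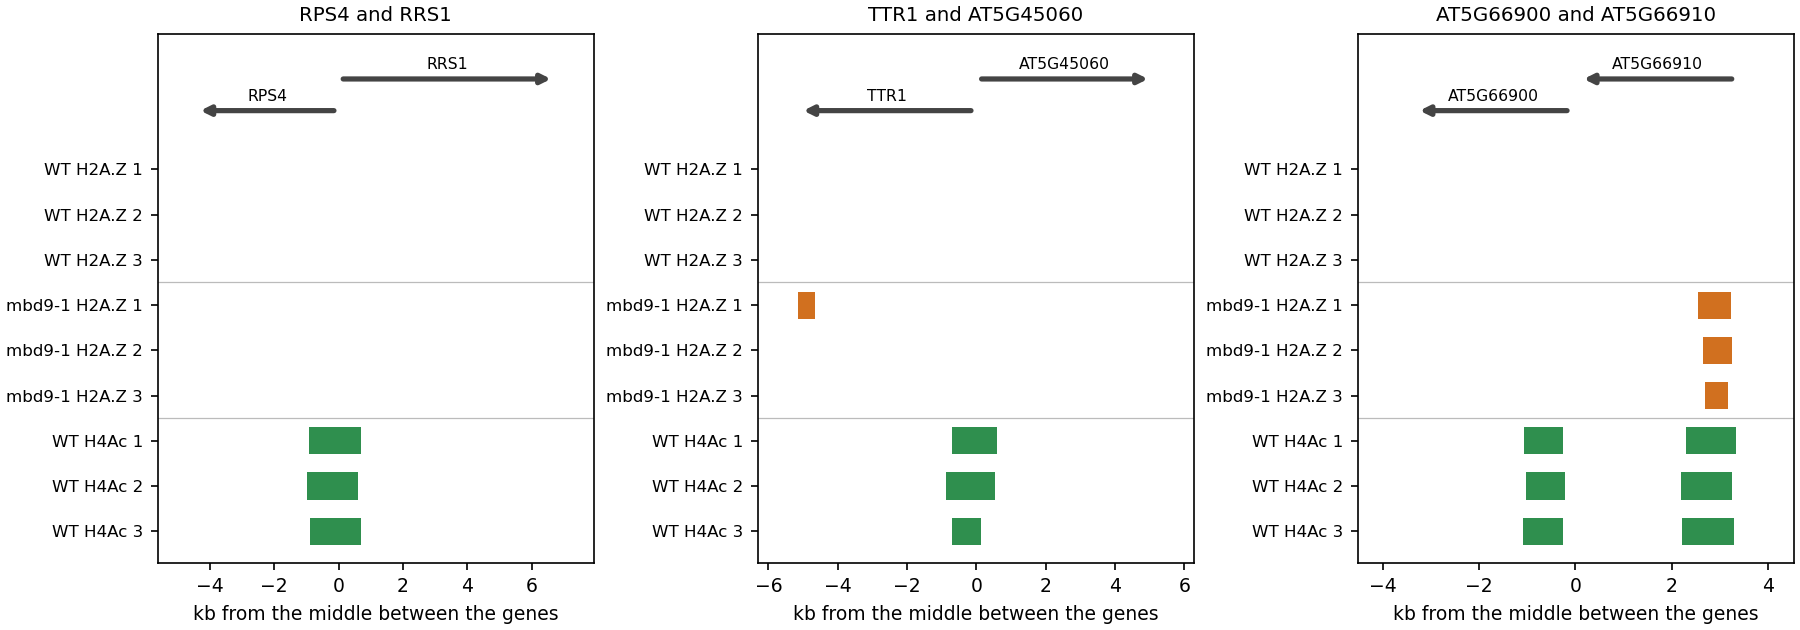
Peaks on 3 neighbouring gene pairs (x axis, kb from the middle between the genes) in the 9 libraries (rows), with genes as arrows and peaks as boxes. The H4Ac boxes of RPS4 with RRS1 (1580 to 1622 bp) and of TTR1 with AT5G45060 (848 to 1409 bp) cross the middle, and the *mbd9-1* H2A.Z boxes (477 to 684 bp) lie on AT5G66910 and not on AT5G66900.

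AT1G17600 and AT1G17610 lie on opposite strands of chromosome 1 and their bodies overlap by 3193 bp, so a peak in the overlap marks both. AT1G17610 has the RefSeq synonym CHS1, known from a chilling-sensitive mutant. AT1G17600 had 460, 0 and 428 bp under WT H2A.Z peaks and 0, 471 and 381 bp under *mbd9-1* peaks. The WT peaks were centred at 95.2% to 96.8% of its length, outside the overlap, while the *mbd9-1* peaks were centred 102 and 217 bp from its start. AT1G17610 had no WT peak and the same 471 and 381 bp in *mbd9-1*, all at the most common width of those lists. H4Ac reached 287, 377 and 434 bp into the 3′ end of AT1G17600 from peaks centred beyond it, and was absent from AT1G17610.

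AT3G44630 and AT3G44670 form a pair of TIR-type genes on chromosome 3, in which 72.7% and 61.6% of 50-mers are unique. AT3G44670 was the only NLR gene with more H2A.Z coverage in every WT than in every *mbd9-1* library (8.83% of all protein-coding genes), at 199, 192 and 87 bp against 0, 1 and 0 bp (exact permutation p = 0.1, adjusted p = 1.0). This came from the edge of broad peaks of 1130 to 1514 bp whose centres lay at -1058 to -948 bp from the gene start, and the overlapping bases held no unique 50-mer, so the call is uncertain. H4Ac lay within the gene on 772, 454 and 612 bp. AT3G44630 had no H2A.Z peak and 1270, 687 and 1263 bp of H4Ac.

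Of the guards of host proteins named here, *RPS2*, *RPM1* and *ZAR1* had H4Ac in some library and no H2A.Z, and *SUMM2* had neither. Only *RPS2* had H4Ac in every WT library. In WT, H4Ac was the commoner mark of the NLR genes as a whole too, at a mean of 63.2% against 14.9% for H2A.Z. Genes of like length gave 60.8% against 29.2%, so more H4Ac than H2A.Z was not particular to the guards. *RPM1* (AT3G07040) and *RPS2* (AT4G26090) guard RIN4 and had no H2A.Z peak. H4Ac covered 1311, 828 and 736 bp of *RPS2*, mostly in a peak centred 3015 to 3044 bp from the start, and 424, 0 and 0 bp of *RPM1*. The *RPM1* peak had the most common width of its list. *SUMM2* (AT1G12280) monitors the MPK4 cascade and had no peak in any library. *ZAR1* (AT3G50950), which forms a resistosome with the help of RKS1 or ZED1, had no H2A.Z and 551, 588 and 0 bp of H4Ac.

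Among the receptors for downy mildew, *RPP8* (AT5G43470) and *RPP13* (AT3G46530) had long H4Ac peaks. *RPP8* had 1848, 1807 and 1799 bp, or 33.6% ± 0.487 of its window, level with *ADR1-L2* as the highest shares of the 38, and *RPP13* had 958, 1186 and 1055 bp, or 29.1% ± 3.12. Both genes were thus covered alike in the 3 libraries. *RPP8* had H2A.Z peaks of 439 bp in 1 WT library, at the gene start, and 471 bp in 1 *mbd9-1* library, 1070 bp downstream, each at the most common width of its list. *RPP13* had none. *RPP1* (AT3G44480) had 24, 29 and 0 bp in WT and 40, 10 and 0 bp in *mbd9-1*, all from the ends of peaks with centres at -1294 to -708 bp from its start, in AT3G44485 or AT3G44490. With 51.0% of its 50-mers unique, *RPP1* is also the least unique of the 38. H4Ac covered 118, 614 and 551 bp of its window.

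*RLM1* (AT1G64070), a gene for resistance to the fungus *Leptosphaeria maculans*, had the widest H2A.Z coverage of any NLR gene in 1 library. Its values were 563, 0 and 0 bp in WT and 1449, 932 and 0 bp in *mbd9-1*, so the groups overlapped through the third *mbd9-1* library. In both marked *mbd9-1* libraries 1 peak lay near the start and another at the 3′ end, and 402 bp were shared with the WT peak. The gene had no H4Ac peak. It is one of 5 genes with an H2A.Z peak in some library and no H4Ac peak, with AT1G17610, AT4G16940, *WRR4* (AT1G56510, white rust resistance) and AT1G58602. The share of all protein-coding genes was not counted by this rule, so the 5 cannot be called many or few. By a stricter rule, H2A.Z in at least 2 WT libraries and no H4Ac, it was 0 of the 38. That rule called 15.9% of all protein-coding genes and 12.5% of genes of like length. *WRR4* had 1 *mbd9-1* peak of 495 bp, and AT1G58602, at 20195 bp the longest window, had 911 bp in 2 peaks of the third *mbd9-1* library.

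Apart from *RPS6*, the remaining genes described here carried H4Ac or nothing. *RPS6* (AT5G46470), a receptor for a *Pseudomonas syringae* effector, had 1090, 1013 and 1028 bp of H4Ac, and its only H2A.Z was 160 bp from a peak in 1 *mbd9-1* library centred in the upstream gene. AT4G12010 had 1174, 1308 and 0 bp of H4Ac, and *CW9* (AT1G59620) 764, 705 and 0 bp, both without H2A.Z. *DAR4* (AT5G17890), *LAZ5* (AT5G44870) and AT4G19500 each had H4Ac in a single library (424, 456 and 424 bp, in each case the most common width of the list). AT4G19510 had 549, 0 and 456 bp of H4Ac, and its neighbour AT4G19520 had no peak at all. Together with *SUMM2*, *RPP4* and AT4G16960, AT4G19520 was 1 of 4 NLR genes without a peak in any of the 9 libraries. These are 10.5% of the 38, against 19.3% of all protein-coding genes and 9.52% of genes of like length. All 4 lie in clusters, as do 21 of the 38 genes, and a link between clustering and missing peaks was not tested.

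**Figure D5:**
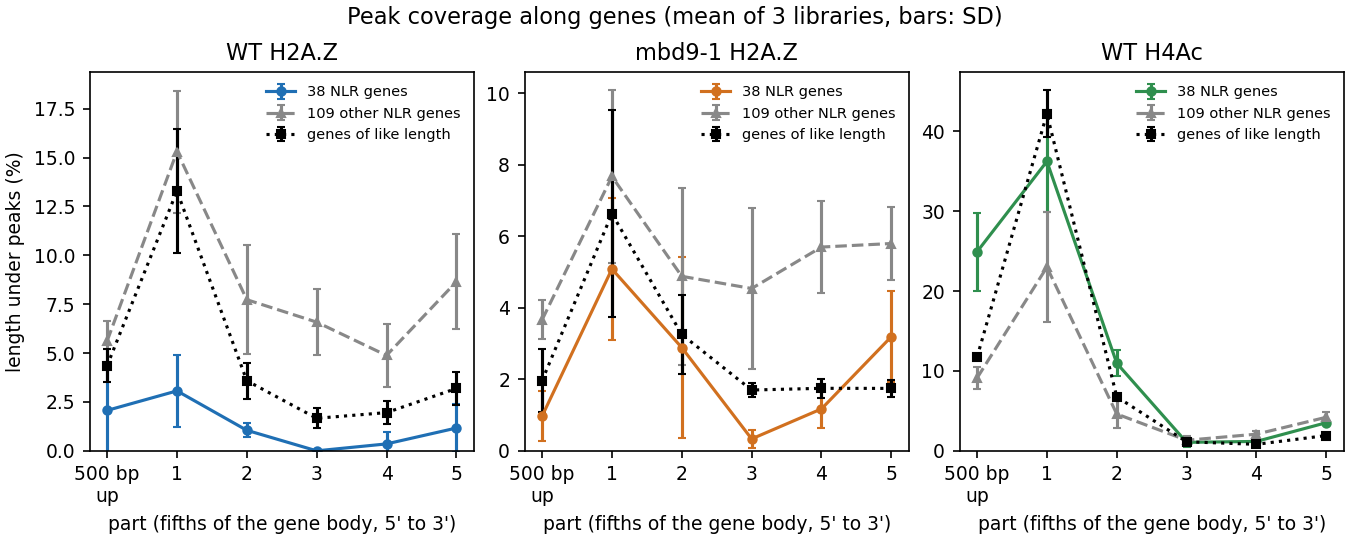
Mean percent of length under peaks (y axis) in the 500 bp upstream and in 5 equal parts of the gene body from 5′ to 3′ (x axis), for WT H2A.Z, *mbd9-1* H2A.Z and WT H4Ac (panels, each with its own scale). Lines are the 38 NLR genes, 109 other NLR genes and protein-coding genes of like length, and error bars are SD over 3 libraries. H4Ac on the 38 genes peaks in the first part at 36.3%, where WT H2A.Z reaches 3.07%.

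Along the genes, H4Ac lay at the 5′ end. It covered 24.9% ± 4.91 of the 500 bp upstream and 36.3% ± 6.37 of the first of 5 equal parts of the 38 gene bodies, then 11.0% ± 1.65 of the second and 1.06% ± 0.558 of the third. In genes of like length it covered 11.7% ± 0.381 of the upstream part and 42.2% ± 2.96 of the first part of the body. WT H2A.Z covered 3.07% ± 1.85 of the first part of the NLR genes against 13.3% ± 3.17 in genes of like length, and in *mbd9-1* the values were 5.09% ± 1.98 and 6.63% ± 2.89. The middle part of the NLR gene bodies had no WT H2A.Z peak, but such peaks were rare there in genes of like length too. In those, WT H2A.Z touched the middle part of 171, 104 and 148 of 3803 genes and covered 1.665% ± 0.502 of it.

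H2A.Z and H4Ac libraries of the same number came from the same WT chromatin, divided between the antibodies. Of the window length of the NLR genes under H2A.Z, 56.9%, 34.2% and 54.7% was also under H4Ac in the 3 samples, against 24.4%, 20.1% and 19.9% over all protein-coding genes. These shares rest on only 4.49, 1.43 and 1.52 kb of H2A.Z. All 5 NLR genes with H2A.Z in at least 2 WT libraries also had H4Ac in at least 2, as did 38.2% of all protein-coding genes with such H2A.Z and 49.9% of those of like length. As a share of the 38 this was 13.2%, close to the 11.0% of all protein-coding genes and 14.5% of genes of like length with both marks. H4Ac in at least 2 and no WT H2A.Z was found on 17 (44.7%), against 28.8% of all protein-coding genes and 39.1% of genes of like length.

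By class, H4Ac marked 79.5% ± 16.0 of the 13 CC-type and 58.0% ± 6.64 of the 23 TIR-type genes, and WT H2A.Z marked 15.4% ± 13.3 and 15.9% ± 5.02. The H4Ac ranges overlapped, at 61.5% to 92.3% and 52.2% to 65.2%. The windows of CC-type genes were shorter (median 3852 against 5918 bp). The 21 genes in clusters and the 17 alone had like shares of H4Ac (61.9% ± 9.52 and 64.7% ± 11.8) and of WT H2A.Z (14.3% ± 4.76 and 15.7% ± 12.3), and *mbd9-1* H2A.Z marked 25.4% ± 7.27 and 17.6% ± 10.2. The 8 genes with under 80% unique 50-mers had WT H2A.Z in 33.3% ± 7.22, above the 14.9% of all 38, and without them the NLR genes minus all protein-coding genes gave -19.1 percentage points, against -14.2 with them.

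A list of 20 genes that work with NLRs had H4Ac in at least 2 WT libraries on 16 (46.3% of all protein-coding genes) and H2A.Z in at least 2 WT libraries on 3 (28.8% of all protein-coding genes). These 3 were *SGT1A* (AT4G23570), a co-chaperone of NLRs, and *RKS1* (AT3G57710) and *ZED1* (AT3G57750), the pseudokinase partners of ZAR1. *SGT1A* had 775, 702 and 829 bp under WT H2A.Z peaks, *RKS1* 115, 251 and 215 bp and *ZED1* 459, 497 and 328 bp, and none of the 3 had an *mbd9-1* peak in any library. All 3 thus had H2A.Z throughout WT and nowhere in *mbd9-1*, as 4.88% of all protein-coding genes did. *RKS1* and *ZED1* lie close together (chr3:21384676-21387399 and chr3:21393963-21395288), so the 3 genes are not 3 separate regions. *PAD4* (AT3G52430), a lipase-like signalling protein, went the other way in number, with a peak in 1 WT and 2 *mbd9-1* libraries. *EDS1*, *NDR1*, *SGT1B* and *RIN4* had H4Ac in all 3 libraries and no H2A.Z.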

How the data were processed

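ChIP-seq peak lists of 9 libraries were used, grouped by their labels and the Methods (3 WT H2A.Z, 3 *mbd9-1* H2A.Z, 3 WT H4Ac). Single-end 50 nt reads were aligned by the authors to TAIR10 (Bowtie2), filtered (Samtools) and passed to HOMER Findpeaks, which called peaks per library over input. Replicates were not pooled and libraries were not scaled to equal depth. The threshold and version of HOMER, not given in the sources used here, affect which weak peaks are listed. The deposited lists hold only positions, the start and end of each peak in bp, with no count, score or p-value. Starts were read as counted from 0. Read numbers per library, which the lists do not hold, were not used here, and replicates were biological, so the spread is that between samples.

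Genes and sequences came from RefSeq TAIR10.1, whose 5 nuclear chromosomes contain every peak. Windows were compared with the lists in Python 3.11.15 with NumPy 2.4.6 (SciPy 1.17.1, pandas 2.3.3, matplotlib 3.10.9), and bedtools 2.31.1 gave the same covered length for all 27444 genes in each library. The steps were also tested on simulated lists. WT and *mbd9-1* were compared with exact permutation tests (two-sided) and Benjamini-Hochberg adjustment over all genes, and NLR genes by counts alone. Clusters join genes within 50 kb. Uniqueness is the share of 50-mers of a window found once in the genome on either strand. The NLR genes, the pathway list and the tests were chosen with earlier results of these data known. All 38 genes entered the counts, 1 of them is not reported here by itself, and values per library were given for genes in clusters, in at least 5 or none of the H2A.Z libraries, or with the highest or lowest WT coverage. WT H2A.Z and H4Ac libraries of the same number were taken as parts of the same chromatin. WT and *mbd9-1* H2A.Z libraries share only a number (correlation of deviations from the group means 0.020, -0.159 and 0.036 over all genes). Between WT H2A.Z and H4Ac of the same number this correlation was -0.0019, 0.0060 and 0.012. It therefore cannot tell shared chromatin from a shared number.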

Additional observations from a re-analysis of the deposited data

How the results depend on the processing

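The results were recomputed with other windows, overlap rules, peak lists, gene sets and backgrounds, and without each library, and no difference changed sign. The H4Ac share of the NLR genes beyond the background depended on gene length, at 17.6 percentage points over all protein-coding genes and 2.34 over genes of like length, and the cause was not tested. The count of 5 genes with H2A.Z in at least 2 WT libraries was 3 with the gene body alone, with at least 200 bp under a peak, with a peak centre in the window, without the narrowest peaks and with 1 gene per cluster, and 2 without the 8 genes under 80% unique. Genes with H2A.Z and H4Ac in at least 2 WT libraries each, 5 in the main count, were recounted under each setting. They numbered 3 with the gene body alone, 3 at 200 bp, 2 by peak centre and 1 without the narrowest peaks. With lists of equal length they were 3, with 1 gene per cluster 3 and without the less unique genes 2. With the gene body alone, at 200 bp, with 1 gene per cluster and without the less unique genes, every gene with H2A.Z in at least 2 WT libraries thus had both marks. The count of 8 genes in *mbd9-1* was 3 without the narrowest peaks, 5 with lists of equal length (5215 H2A.Z peaks each), 4 with 1 gene per cluster and 5 without the less unique genes. Without the narrowest peaks (up to the lower quartile of width), the shares were 11.4% for *mbd9-1* H2A.Z and 48.2% for H4Ac, *mbd9-1* minus WT H2A.Z was 0.877 percentage points and WT H2A.Z minus H4Ac -37.7, the NLR genes minus all genes in WT H2A.Z was -9.86, and 1 gene was marked in every WT and no *mbd9-1* library. That last difference was -19.1 without the less unique genes. With 1 gene per cluster (25 genes), 14 had no H2A.Z.

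Leaving out 1 library in turn gave 10.5% to 17.1% for WT H2A.Z, 18.4% to 26.3% for *mbd9-1* H2A.Z and 57.9% to 68.4% for H4Ac. The *mbd9-1* minus WT difference was 3.51 to 11.4 percentage points, and in covered length 0.681 to 1.42. WT H2A.Z minus H4Ac was -53.5 to -43.0. NLR genes minus all genes were -15.9 to -11.9 in WT H2A.Z, 2.1 to 6.35 in *mbd9-1* and 14.2 to 21.8 in H4Ac. Counts of genes marked in both remaining or at least 2 libraries were 3 to 4 in WT, 2 to 6 in *mbd9-1*, 18 to 24 in H4Ac and 3 to 5 for both marks. Without the first or the second *mbd9-1* library 1 gene was marked in every WT and no *mbd9-1* library, otherwise 0, and 22 to 24 had no H2A.Z. Over all protein-coding genes (alternatives chosen after seeing the data) the *mbd9-1* minus WT difference was -14.0 to -8.38. With the replicate number as a block the differences were the same, 7.02, -48.2 and 0.967, as each group has the same numbers. What limits these values is that the lists hold no reads and that a peak near the caller's limit can be present in 1 library and absent in the next.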
